A study of Gallus gallus with 6 samples.

Results

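Methylated lysine 4 of histone H3 (H3K4) in chicken embryonic stem cells (ESC) was described from 1 immunoprecipitated library (ESC IP) set against 1 input library of the same cells (ESC input). The 8257 regions described were all distinct regions of the 2 deposited tables that include ESC, out of 10677 distinct regions in all 3 tables of the series. The ESC came from the blastoderm of eggs at stage X, were grown for 24 h in DMEM with 10% fetal bovine serum, 1000 IU/ml leukaemia inhibitory factor (LIF), 10 ng/ml basic fibroblast growth factor (bFGF) and 5 ng/ml stem cell factor (SCF) at 37 °C and 5% CO2, and were then purified by differential culture. ESC IP and ESC input shared all of this and differed in the antibody, which recognises di- and trimethylated H3K4, while the input had none. The signal is therefore called H3K4 methylation, although the series is titled for the dimethylated form. The series also holds 1 IP and 1 input library each from spermatogonial stem cells (SSC) and primordial germ cells (PGC). The labels give 18.5 days of incubation for SSC and 4.5 days for PGC, so embryo age differed along with cell type. With 1 library a group there is no replicate check, no test between groups was possible, and all intervals cover counting error alone.

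H3K4 is methylated by SET-domain enzymes working with shared core subunits, and demethylated by the KDM1 and KDM5 enzymes. Trimethylation is best known at active and CpG-rich promoters, and dimethylation at promoter flanks and enhancers. In pluripotent cells the mark is also found at promoters of silent developmental regulators, so it is no measure of a gene's RNA.

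The libraries held 26.0 M reads (ESC IP) and 20.0 M reads (ESC input), where M stands for megareads. Read counts are given as deposited, and the ratio of IP over input is the ratio of reads per megaread of library (RPM), each computed by the authors from the count plus 1. Tables list a region with its marks for the populations in which it was a peak, and "marked" below means marked as a peak in ESC. Every listed region had an enrichment above 1 in both populations of its table, so the lowest ESC ratio was 1.002 and the regions are not all the ESC peaks there may be. Of the 8257 regions, 2384 stood in both tables, 2417 only in the table with PGC and 3456 only in the table with SSC.

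H3K4 methylation was at least 2-fold higher in ESC IP than in ESC input at 4923 regions (59.6%) and at least 4-fold higher at 3210 (38.9%). A higher share of cells with the mark and more mark per cell cannot be told apart in such libraries. The 95% counting interval of the ratio lay above 1 at 4217 regions (51.1%). Among the 3992 marked regions the median was 34 reads in ESC IP and 4 reads in ESC input, and the median ratio was 5.88, with an interquartile range of 4.09 to 8.55 and a range of 1.42 to 44.2. Among the 4265 regions that were not marked, the median was 10 reads in ESC IP and 4 in ESC input, and the median ratio was 1.44. The ratio reached 2-fold at 99.4% of the marked regions and at 22.4% of the others, and the interval lay above 1 at 98.1% and 7.03%. The peak call and the ratio rest on the same reads, so the gap between the classes is a description of the call.

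**Figure D1:**
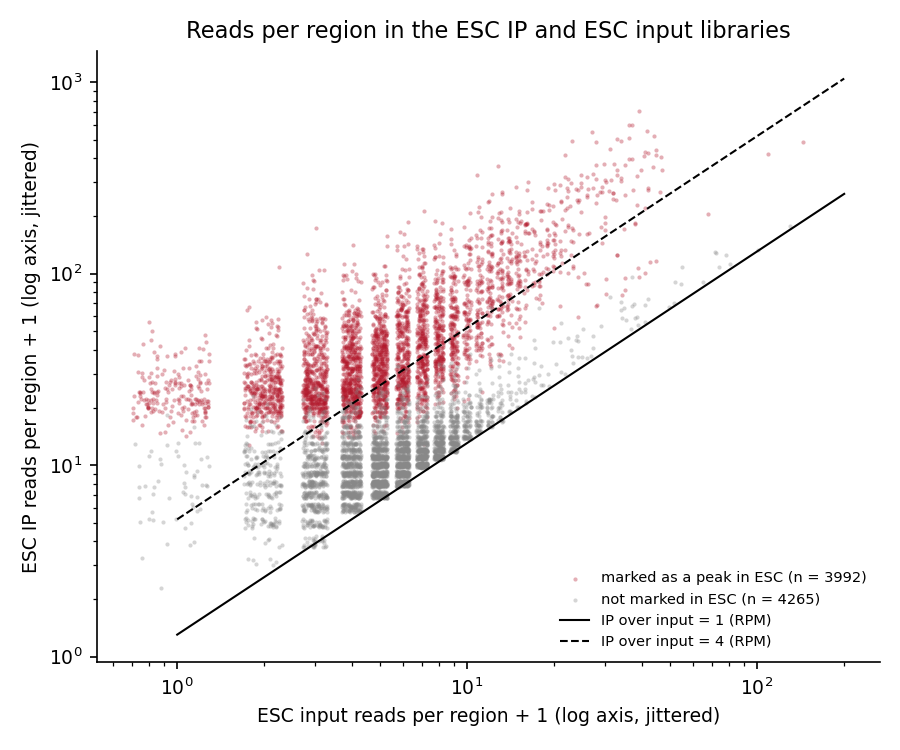
Reads in ESC IP (vertical, plus 1, log axis) against reads in ESC input (horizontal, plus 1, log axis) for each of the 8257 regions, jittered, with lines at a ratio of 1 and of 4. Marked regions (n = 3992) lie mostly above the dashed line, and regions not marked (n = 4265) lie mostly between the lines, close to the solid line that also limits the listing.

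The input was shallow at single regions, and this sets how firmly a single ratio can be read. At 190 marked regions ESC input held 0 reads. For a named region with 0 input reads the ratio is given at a floor of 3 input reads. Such a ratio at the floor is no lower limit, since the counting interval starts below it. Across marked regions, Spearman's rho between IP and input was 0.66 for reads, which both grow with region width, and 0.08 for reads per kb. Across regions not marked it was 0.50 for reads per kb. These coefficients describe regions that share 1 pair of libraries.

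Of the 8 strongest marked regions by the lower end of the counting interval, 4 lay beside genes with no symbol in the tables, and the other 4 are given here. The region of PCDH1, a protocadherin of cell-cell contacts (chr13:1408033-1409479 on galGal4, centre in the first intron), held 172 reads in ESC IP and 2 reads in ESC input. That is 6.65 RPM in ESC IP and 0.150 RPM in ESC input, a ratio of 44.2 with an interval of 18.0 to 549. Its IP signal was far above its input, but with 2 input reads the upper end of the interval is loose.

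CLDN1, a tight junction protein (chr9:13417567-13419239, first intron), held 326 reads in ESC IP and 10 in ESC input, a ratio of 22.8 (13.4 to 52.6). SNORA73, a small nucleolar RNA (chr23:2106112-2107638), held 362 reads in ESC IP and 12 in ESC input, a ratio of 21.4 (13.1 to 45.2). A second small nucleolar RNA, SNORA71 (chr10:835399-836636), held 184 and 5 reads, a ratio of 23.6 (11.9 to 87.9). These intervals overlap one another, so the order among the strongest regions cannot be read from the counts. HNRNPA3, an RNA-binding protein of pre-mRNA packaging, held 157 reads in ESC IP and 4 in ESC input, a ratio of 24.2 (11.5 to 112). FSCN1, an actin-bundling protein, held 111 and 3 reads, a ratio of 21.5 (9.46 to 140).

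Ranking by IP RPM in place of the ratio brought up wide regions. The highest, at chr2:139317097-139320916 beside a gene with no symbol in the tables, held 707 reads in ESC IP and 38 in ESC input (27.2 and 1.95 RPM; ratio 13.9, interval 10.3 to 20.3). Among genes with a symbol, TNRC6C, a scaffold of microRNA-guided silencing, had 556 reads in ESC IP and 41 in ESC input, but this region lay 51538 bp upstream of its start. MYCN, a Myc family transcription factor of dividing progenitors (chr3:98777270-98780595, 518 bp downstream of the start, 5' UTR), had 519 reads in ESC IP and 43 in ESC input, a ratio of 9.06 (6.77 to 12.9). MSX1, a homeobox regulator (chr4:78388260-78391157), had 493 and 33 reads, a ratio of 11.1 (8.05 to 16.8). Their many reads gave narrower intervals than those of the regions with the highest ratios.

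At the low end of the marked regions were short, shallow ones. The lowest with a symbol was a 200 bp region of NKD1, an antagonist of Wnt signalling, 24603 bp inside the gene, with 12 reads in ESC IP and 5 in ESC input. Its ratio was 1.66 with an interval of 0.603 to 6.67, which includes 1. The same gene had 3 further marked regions, with ratios up to 7.67, so NKD1 as a whole was not low. The widest marked region of all, 4532 bp over the start and first intron of GATA4, an endoderm and heart regulator, was also low, at 2.31. It was listed only in the comparison with SSC, and the part of SSC calls in its width was not tested.

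Marked regions clustered around transcription starts, mostly on the downstream side. Of the 3992 marked regions, 2568 (64.3%, 95% interval 62.8 to 65.8) had their centre within 1 kb of the closest start, compared with 10.5% of regions not marked. Regions not marked were listed through a call in PGC, where 3.90% lay near a start, or in SSC, where 16.4% did. They are thus no background of the genome. The centre was downstream of the start in 2103 of the marked regions near a start and upstream in 465. The first 500 bp downstream alone held 1563 marked regions. By the authors' annotation of the centre, 41.2% of marked regions lay in a first intron, 34.8% outside genes, 8.64% in a later intron, 5.99% in a 5' UTR, 4.63% in a first exon and 0.676% in a 3' UTR. The share outside genes was 50.9% among regions not marked, of which 28.3% lay in later introns.

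The ratio was higher near starts than away from them, while IP signal per kb was almost level. The median ratio was 6.33 at marked regions near starts and 5.06 at those away from them. Median IP density was 3.77 RPM per kb near starts and 3.72 RPM per kb away. Median input density was 0.614 RPM per kb near starts and 0.741 RPM per kb away. In the bins of distance the median IP density stayed between 3.65 and 3.84 RPM per kb, from beyond 50 kb upstream to beyond 50 kb downstream. The input density was lowest, at 0.584 RPM per kb, in the 500 bp downstream of the start, where the ratio was highest at 6.52. It was 0.873 RPM per kb beyond 50 kb downstream, where the ratio was 4.45. Across the bins the ratio moved with input density while IP density stayed level, and the cause was not tested. Marked regions passed a peak call that rests on the same IP reads, and its part in the level IP density was not tested. The same limit holds for the annotation and chromosome classes below.

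**Figure D2:**
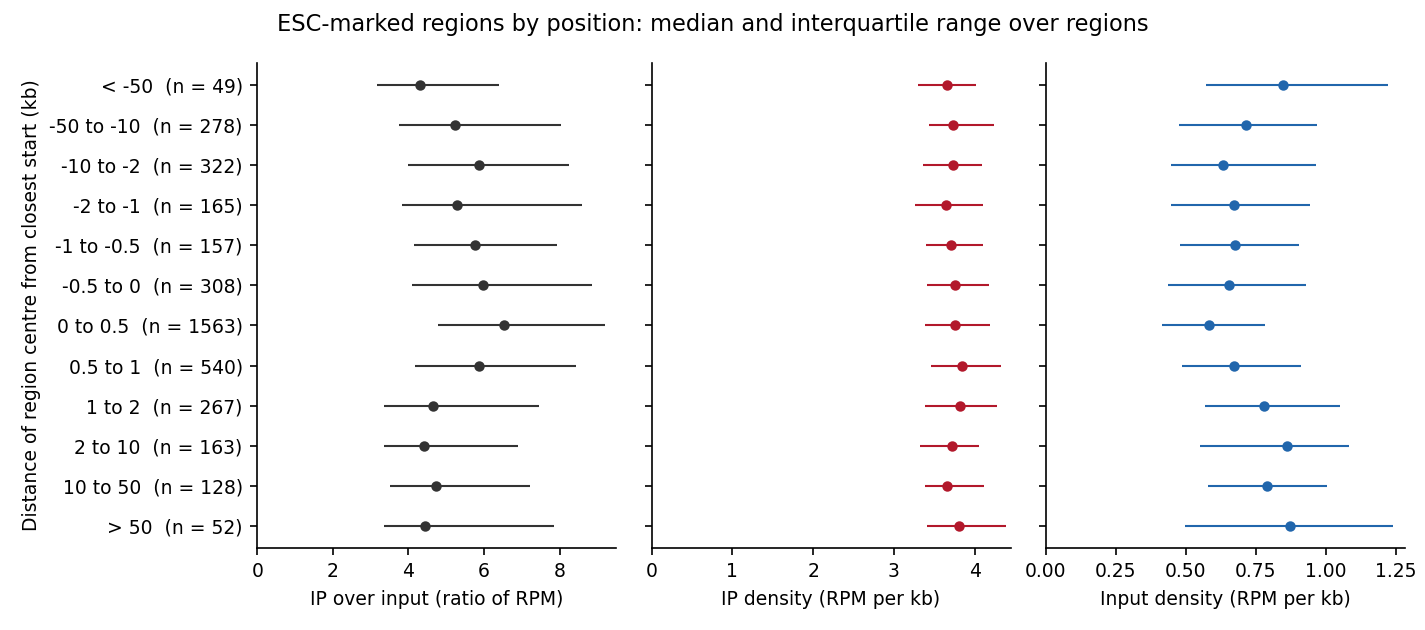
Marked regions in 12 bins of distance from the closest start (rows, upstream negative, kb): IP over input on the left, IP density in RPM per kb in the middle and input density in RPM per kb on the right, with points at medians and bars over the interquartile range across regions. The ratio peaks at 6.52 just downstream of starts, the IP medians stay between 3.65 and 3.84, and the input median is lowest, 0.584, in the bin of the highest ratio.

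Annotation classes followed the same order. Regions centred in a 5' UTR had a median ratio of 7.01 and those in a first exon 6.90, against 6.13 in first introns, 5.37 in later introns, 5.37 outside genes and 3.93 in the 27 marked regions of 3' UTRs. In 5' UTRs the IP density was 3.92 and the input density 0.576 RPM per kb, compared with 3.66 and 0.953 RPM per kb in 3' UTRs.

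A weaker signal near starts was present in regions that were not marked. The 447 of these within 1 kb of a start had a median ratio of 1.79, and 43.0% reached 2-fold. The 3818 away from starts had a median ratio of 1.41, and 20.0% reached 2-fold. Here both densities differed, with 1.92 RPM per kb in IP and 0.973 in input near starts, and 1.67 in IP and 1.12 in input away from them.

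Chicken microchromosomes are small, GC-rich and gene-dense. Marked regions on them (1162) had a median ratio of 6.39, against 5.67 for the 2752 on chromosomes 1 to 10 and Z. The IP density was 3.73 RPM per kb on microchromosomes and 3.76 on large chromosomes, and the input density was 0.600 and 0.683 RPM per kb. The sign of the difference thus turned when IP density was read without the input. Regions near starts made up 70.1% of marked regions on microchromosomes and 62.0% on large chromosomes, and within the near-start regions alone the ratios were 6.75 and 6.13. The 151 marked regions on Z had a median ratio of 6.39.

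Wide marked regions had a denser IP signal. From the 1491 regions of up to 300 bp, through those of up to 500, 1000 and 2000 bp, to the 54 regions of over 2000 bp, the median ratio was 4.86, 5.75, 6.90, 7.91 and 8.61. The median IP density was 3.72, 3.61, 3.83, 4.55 and 5.53 RPM per kb over the same classes. The input density was 0.748 in the narrowest class and 0.656 in the widest, with its lowest value, 0.567, between 500 and 1000 bp. The 1 read added to each count raises density most in narrow regions and lowers ratios most where reads are few. Its part in the order of input densities and in the rise of the ratio with width was not tested. Regions also marked in another population were 19 of 1491, 95 of 1218, 166 of 941, 104 of 288 and 28 of 54 in the classes from narrow to wide. The part of these other calls in the borders of the widest regions was not tested. The regions of over 2000 bp that were marked in ESC alone had a median ratio of 9.25.

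The share of transcription factor genes was highest beside the widest regions. Among closest genes with an annotated function, transcription factor activity was listed for 7 of 27 in the widest class (25.9%, interval 11.1 to 46.3) and for 7.65%, 5.39%, 4.44% and 5.59% in the classes from wide to narrow. With overlapping regions merged it was 7 of 25 (28.0%). Several regions of 1 gene can enter a class, and some genes have no annotated function. At most 12 annotated terms were listed for a gene, so genes with this activity may be missed. The shares thus describe this list, and their difference was not tested. TFAP2C, MYCN, MSX1, GATA2 and GATA4 all had a marked region wider than 2000 bp.

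**Figure D3:**
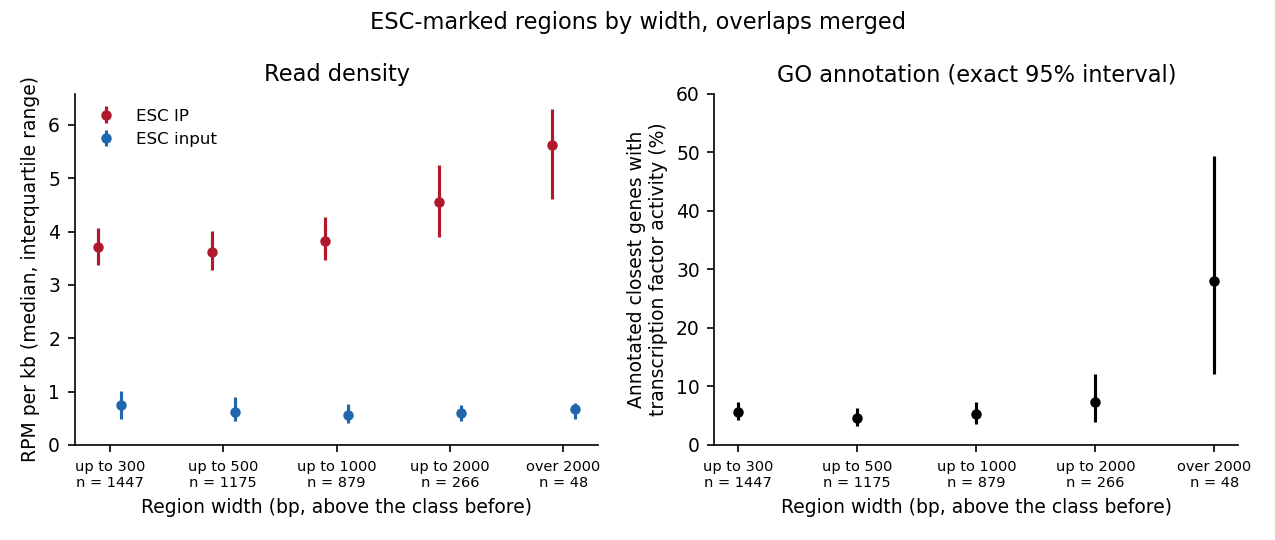
Marked regions by width class, overlapping regions merged: median IP and input density in RPM per kb with interquartile ranges (left), and percent of annotated closest genes with transcription factor activity with exact 95% intervals (right). IP density reaches 5.61 RPM per kb in regions over 2000 bp, input stays below 1, and the transcription factor share there is 28.0% with a wide interval over 25 annotated regions.

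Pluripotency and stem cell factors were searched because of the label of the cells. Of 25 symbols searched, 7 were the closest gene of a listed region, and 6 of these were at least 2-fold higher in ESC IP, against 64.6% of all 3283 genes with a symbol. For each gene the region whose centre lay nearest the start was used, so a wide region that covers the start can be passed over for a shorter one. Of the 7, 5 were marked, against 54.5% of all genes, and the same number had an interval above 1, against 56.9% of all genes. NANOG, SOX2 and POU5F3 were not among the closest genes of the regions and were not analysed here. The mark is no measure of RNA, so the values of this list cannot check the label.

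TFAP2C, an AP-2 factor linked to pluripotency and germ cell specification in mammals, had the highest ratio of this list (chr20:12288721-12292154, first intron), while MYCN had the higher IP density, 6.01 RPM per kb. It held 490 reads in ESC IP and 22 in ESC input, or 5.49 and 0.336 RPM per kb, a ratio of 16.4 (11.2 to 27.5). KLF5, a Krüppel-like factor of pluripotent and epithelial cells, held 92 reads in ESC IP and 6 in ESC input at 782 bp downstream of its start, a ratio of 10.2 (5.20 to 32.9). LIN28B, an RNA-binding inhibitor of let-7 maturation, held 22 and 4 reads, a ratio of 3.53 (1.43 to 16.8). All of these intervals lay above 1. The regions assigned to KLF2 and to the grainyhead-like factor TFCP2L1 were not marked. KLF2 held 10 reads in ESC IP and 2 in ESC input at 8241 bp upstream (ratio 2.81, interval 0.817 to 36.0), and TFCP2L1 held 12 and 8 reads at 87242 bp downstream (1.11, 0.432 to 3.24). Neither region is near a promoter, so these values say nothing of the promoters of KLF2 and TFCP2L1.

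TRIM71, a stem cell RNA-binding protein and let-7 target, had a cluster of 4 marked regions between 35339 and 39862 bp upstream of its start and no listed region nearer. The strongest of the 4 held 40 reads in ESC IP and 1 in ESC input, a ratio of 15.7 (5.20 to 1241). The other 3 had ratios between 3.58 and 4.28, and the 4 together held 198 reads in ESC IP and 28 in ESC input over 2031 bp.

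A second list held genes of early lineages. These are regulators known to act in mesendoderm, surface ectoderm and neural crest after the stage sampled. Of 26 symbols searched, 9 were listed, all 9 reached 2-fold in ESC IP, and 8 were marked. These shares stand beside 64.6% at 2-fold and 54.5% marked among all genes. Their median ratio was 5.18, against 3.61 for all genes. With the region of the highest ratio taken for each gene, it was 9.97, against 4.05 for all genes. Regions were taken by their centres, so GATA4 entered by an unmarked region 1366 bp upstream, and TFAP2A by a region with a ratio of 5.62. Wider marked regions covered the starts of both genes.

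EOMES, a T-box factor of mesendoderm, had 7 listed regions, 5 of them marked and within 4021 bp of the start. The strongest, 1757 bp wide and centred 1101 bp downstream of the start, held 196 reads in ESC IP and 11 in ESC input, a ratio of 12.6 (7.47 to 27.8). Toward the gene's 3' end the signal per input was lower, at 3.52 (100 and 21 reads) and 3.45 (26 and 5 reads). IP density over the 5 marked regions ran from 3.32 to 4.55 RPM per kb, and input density from 0.342 to 1.32 RPM per kb.

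TFAP2A, an AP-2 factor of surface ectoderm and neural crest, had 5 regions, all marked, with 501 reads in ESC IP and 31 in ESC input over 4168 bp. The strongest 2, in the first intron, held 209 and 237 reads in ESC IP and 10 and 16 in ESC input, with ratios of 14.6 and 10.7. The region 1086 bp upstream of the start held 16 reads in ESC IP and 0 in ESC input.

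MSX1 had 4 marked regions of 5, which spanned its start and its 3' flank, with 595 reads in ESC IP and 51 in ESC input together. GATA2, a regulator of blood and ectoderm, had 3 marked regions of 4. Its strongest lay 6495 bp downstream of the closest start, in an annotated 5' UTR, and held 446 reads in ESC IP and 30 in ESC input, a ratio of 11.1 (7.87 to 17.1). The region at the closest start held 26 and 3 reads, a ratio of 5.18 (2.04 to 34.3). GATA5, an endoderm and heart regulator, had 3 regions, all marked and all with their centre upstream, with ratios of 9.20, 9.97 and 3.55. The region with a ratio of 9.20 covered the start and reached into the first exon.

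GATA4 had lower values. It had 8 listed regions, 1 of them marked, and ratios from 1.04 to 3.32. The marked region, chr3:106954504-106959036, held 204 reads in ESC IP and 67 in ESC input, or 1.74 and 0.752 RPM per kb, a ratio of 2.31 (1.76 to 3.12). This region began outside the gene and covered the start, with its centre 2022 bp downstream. Its input density was within the quartiles of marked regions (0.452 to 0.907 RPM per kb). Its IP density was below the quartiles of marked regions (3.39 to 4.19 RPM per kb). The other listed regions of GATA4 were not marked and were listed through a call in PGC or SSC. The part of such calls in the borders and density of the marked region was not tested.

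The remaining members of the list had fewer reads. The goosecoid gene GSC, an organizer homeobox factor, had 40 reads in ESC IP and 7 in ESC input nearest its start, a ratio of 3.93 (1.94 to 11.6). DLX5, a homeobox factor of ectoderm and bone, had 19 and 1 reads, a ratio of 7.67 (2.32 to 605). T, the mesoderm regulator brachyury, had a marked region 20536 bp upstream, with 18 and 4 reads and a ratio of 2.91 (1.14 to 14.0). All 3 intervals lay above 1.

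**Figure D4:**
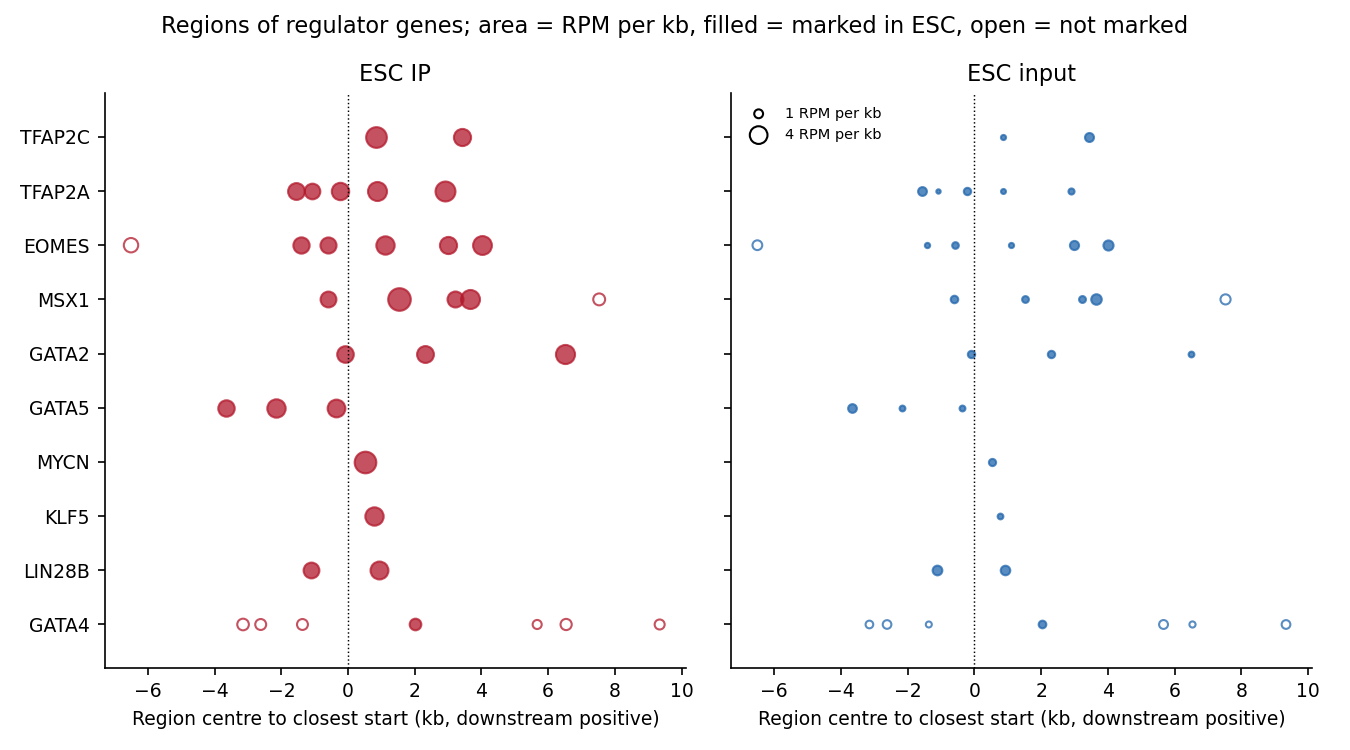
Regions within 10 kb of the closest start for 10 regulator genes, in ESC IP (left) and ESC input (right), placed by the distance of the region's centre from the start in kb; the area of each circle is RPM per kb, filled circles are marked regions and open circles are not. TFAP2A, EOMES, MSX1, GATA2 and GATA5 have 3 to 5 filled circles each, and GATA4 has 1, with smaller IP circles than the others.

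Several marked regions for 1 gene were uncommon. Of the genes with a symbol and a marked region, 1505 had 1 such region, 304 had 2, 61 had 3, 13 had 4 and 7 had 5. Besides EOMES and TFAP2A, the genes with 5 were AP1AR, EPC1, FUBP1, HDAC2 and PTHLH. EPC1 is a subunit of a histone acetyltransferase complex and HDAC2 a histone deacetylase. The 5 regions of HDAC2 held 355 reads in ESC IP and 44 in ESC input and had ratios of 3.61 to 11.8, but they reached from 327 to 70571 bp from its start. FUBP1, a DNA-binding regulator of MYC, had its 5 within 1547 bp (247 and 43 reads). Regions close to each other were counted apart, as listed.

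Signalling genes were mixed. For FGF and MAPK signalling, 10 of 16 listed genes reached 2-fold and 9 were marked, with a median ratio of 3.88. These shares, 62.5% and 56.2%, lay close to the 64.6% and 54.5% of all genes. The stem search also took FGFR1OP2, which is no receptor. FGFR4 and FGFR3, receptors for fibroblast growth factors, held 132 and 214 reads in ESC IP and 8 and 18 in ESC input, with ratios of 11.3 (6.24 to 29.9) and 8.68 (5.63 to 15.7). At FGFR2 the region held 14 reads in ESC IP and 0 in ESC input, a ratio of 3.58 at the floor. The feedback phosphatase DUSP6 had 120 and 19 reads, a ratio of 4.64 (2.97 to 8.32).

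In the Wnt list 4 of 9 genes reached 2-fold and 2 were marked (44.4% and 22.2%, against 64.6% and 54.5% of all genes). TCF7L2, the transcription factor at the end of the pathway (chr6:26590173-26590844, at the start), held 104 reads in ESC IP and 2 in ESC input, a ratio of 26.8 (10.8 to 334). WNT5B, a ligand, held 23 and 3 reads, a ratio of 4.60 (1.78 to 30.6). At DVL1, the Dishevelled adaptor, a region 20390 bp upstream was not marked. It held 12 reads in ESC IP and 0 in ESC input, a ratio of 3.07 at the floor.

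In the Notch list 2 of 7 genes (28.6%) reached 2-fold and both were marked, against 64.6% at 2-fold and 54.5% marked among all genes. The ligand DLL1 held 122 reads in ESC IP and 14 in ESC input at its start, a ratio of 6.29 (3.83 to 12.6). The receptor NOTCH2 held 58 and 10 reads, a ratio of 4.11 (2.25 to 9.76). The other 5 were 200 bp regions with 5 to 7 reads in ESC IP and 3 to 5 in ESC input, all more than 2 kb from a start.

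For TGF-beta and BMP signalling, 6 of 12 genes reached 2-fold (50%) and 5 were marked (41.7%). Both shares lay below those of all genes, 64.6% and 54.5%. The activin receptor ACVR2A had 81 reads in ESC IP and 10 in ESC input nearest its start, a ratio of 5.72 (3.21 to 13.4), and 4 marked regions in all, with ratios up to 19.0. The inhibitory SMAD6 had 88 and 9 reads, a ratio of 6.82 (3.77 to 16.9). BMPR2, listed under the older name BRK-3, had 49 and 3 reads, a ratio of 9.58 (4.04 to 62.8). The Nodal antagonist LEFTY2 had 20 and 5 reads, a ratio of 2.68 (1.12 to 10.5). Of the ligand genes, INHBB had a low value beside its start, with 27 and 15 reads (1.34, 0.708 to 2.79). BMP4 had 11 and 8 reads (1.02) at 33341 bp from its start, which says nothing of its promoter.

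For signalling by LIF and SCF, both added to the culture, 2 of 9 genes searched were listed. KITLG, which encodes SCF itself, had 24 reads in ESC IP and 1 in ESC input at its start, a ratio of 9.58 (3.00 to 757). PTPN11, a phosphatase that links such receptors to MAPK signalling, had 46 and 4 reads, a ratio of 7.21 (3.22 to 33.7). Both were marked.

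Of 24 symbols searched among the genes that write and erase the mark, 7 were listed. All 7 reached 2-fold and 6 were marked, against 64.6% and 54.5% of all genes, with a median ratio of 4.75. The core subunits ASH2L, WDR5 and DPY30 held 31, 30 and 99 reads in ESC IP and 3, 4 and 18 in ESC input. The demethylase KDM5A, with 163 and 16 reads, had a ratio of 7.40 (4.67 to 14.0). The methyltransferase SETD7 had 33 and 1 reads, a ratio of 13.0 (4.24 to 1029). KDM1B, another demethylase, was not marked, with 11 and 2 reads (3.07, 0.920 to 39.2). Among Polycomb and DNA methylation genes 3 of 6 reached 2-fold, and these were marked: SUZ12 (116 and 13 reads, 6.41) and EED (36 and 7 reads, 3.55), both core subunits of the H3K27 methyltransferase complex, and PCGF6 (22 and 6 reads, 2.52).

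Ribosome and translation genes had the highest median ratio of the lists with 10 or more members. Of 66 such genes 60 reached 2-fold and 58 were marked (90.9% and 87.9%, against 64.6% and 54.5% of all genes). Their median ratio was 7.85 and their median IP density 4.77 RPM per kb. The stems also took kinases such as RPS6KB1 and EIF2AK1, which are not ribosomal. EIF2A, an initiation factor, held 43 reads in ESC IP and 0 in ESC input, a ratio of 11.0 at the floor. Of the ribosomal proteins, RPS15 held 159 reads in ESC IP and 5 in ESC input, a ratio of 20.4 (10.2 to 76.1). RPS2, with 366 reads in ESC IP and 34 in ESC input over 2395 bp, had a ratio of 8.04 (5.80 to 12.1). RPL5, not marked, had 17 and 8 reads at 329 bp from its start, a ratio of 1.53 (0.666 to 4.36).

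All 13 proteasome genes reached 2-fold and were marked, against 64.6% and 54.5% of all genes, with a median ratio of 6.13. They ranged from PSMB2, a core subunit with 73 reads in ESC IP and 2 in ESC input (18.9, 7.47 to 235), to PSMD5, an assembly factor with 20 and 4 reads (3.22, 1.28 to 15.4). In RNA splicing 27 of 30 (90.0%) reached 2-fold and the same number were marked, with a median ratio of 6.36. HNRNPK held 141 and 5 reads, a ratio of 18.1 (9.05 to 67.6), and SF3B1, a branch-site recognition subunit, held 63 and 3 reads, a ratio of 12.3 (5.26 to 80.2). The mitochondrial list had 30 of 39 (76.9%) at 2-fold and a median of 4.69. In it MRPL46 and MRPS11 are mitochondrial ribosome genes whose regions lie next to each other on chromosome 10. They had 26 and 20 reads in ESC IP and 0 in ESC input, ratios of 6.64 and 5.11 at the floor.

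Of 20 listed cell cycle genes 15 were marked (against 54.5% of all genes), with a median ratio of 6.67. CDK1, the mitotic kinase, held 118 reads in ESC IP and 10 in ESC input, a ratio of 8.29 (4.75 to 19.4). CCNB2, a mitotic cyclin, held 251 and 21 reads, a ratio of 8.78 (5.87 to 15.1). CDKN1B, a cyclin-dependent kinase inhibitor, held 143 and 7 reads, a ratio of 13.8 (7.41 to 39.7). PLK1, a mitotic kinase, had a region 3107 bp upstream that was not marked, with 7 and 4 reads.

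**Figure D5:**
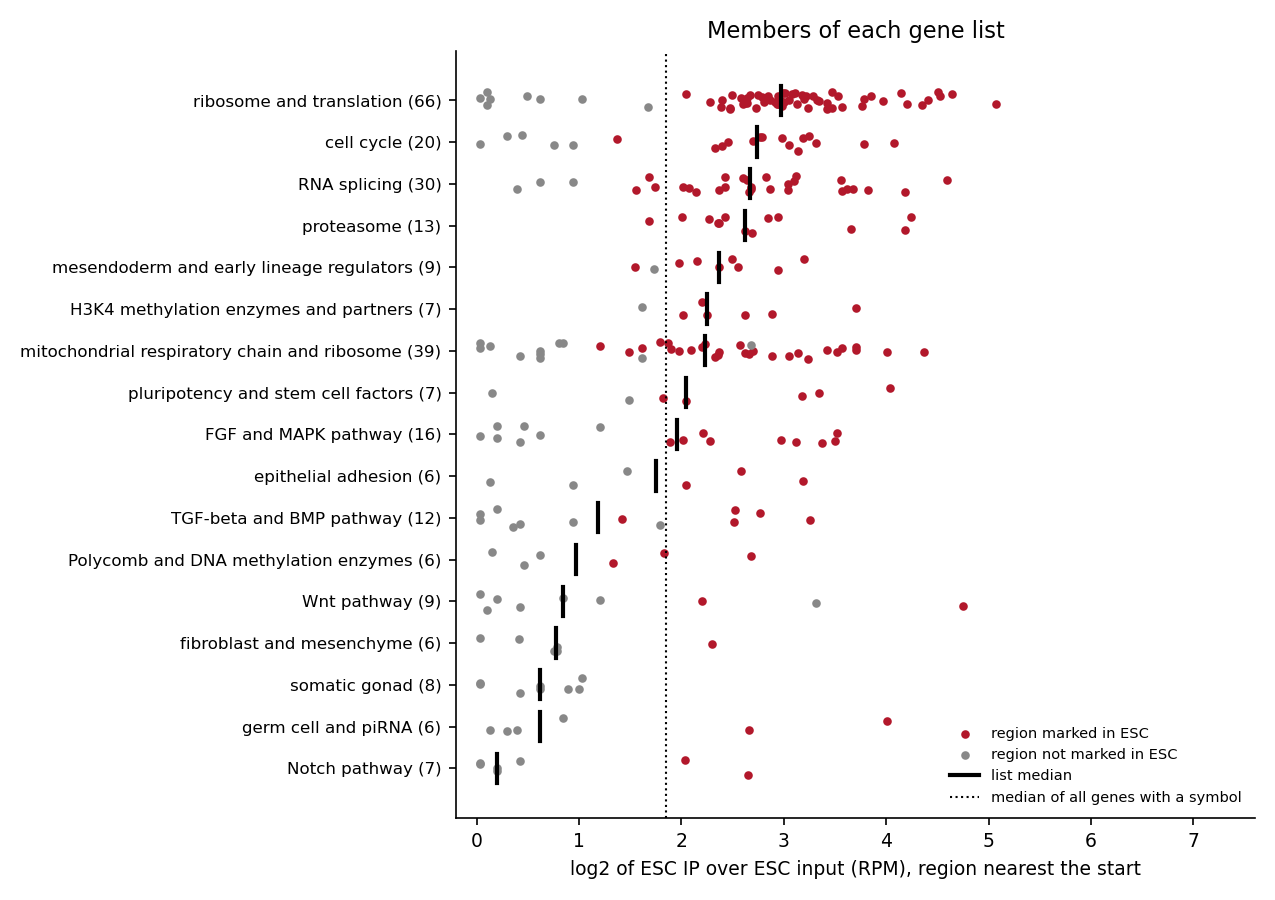
Each dot is a gene of a list, placed at the log2 ratio of ESC IP over ESC input at the region whose centre lies nearest its start. Red dots are marked and grey dots are not. Black bars are list medians and the dotted line is the median of all 3283 genes with a symbol (1.85). Lists with 5 or more members are shown, from the ribosome and translation list at a median of 2.97 to the Notch list at 0.20, and nearly all grey dots lie left of the line.

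Of the lists of other cell types, fibroblast, somatic gonad and germ cell lists had low shares at 2-fold, with few members. Among all genes 64.6% reached 2-fold and 54.5% were marked. In the fibroblast list 1 of 6 members was marked, in the somatic gonad list 0 of 8 and in the germ cell list 2 of 6. The unmarked members were listed only through a call in PGC or SSC. Their low values therefore cannot tell which cells the culture held. Of 18 neural and 13 extraembryonic symbols searched, 0 were the closest gene of a listed region, so their signal is not known here. For fibroblasts and mesenchyme, 1 of 6 listed genes reached 2-fold, the matrix gene FBN1 (31 reads in ESC IP and 4 in ESC input, 4.91), 14383 bp upstream of its start. COL1A2, a fibrillar collagen chain, had 8 and 3 reads beside its start, and PDGFRA, a mesenchymal growth factor receptor, had 58 and 33 reads, a ratio of 1.33 (0.864 to 2.13). For the somatic gonad 1 of 8 reached 2-fold and 0 were marked, with IP densities between 0.763 and 1.74 RPM per kb. It was LHX9, with 23 and 8 reads (2.04, 0.952 to 5.70). TAL1, a blood regulator, had 7 and 3 reads. The germ cell list had 2 of 6 at 2-fold, the Tudor-domain genes TDRD7 (20 and 0 reads, 5.11 at the floor) and TDRD3 (65 and 7 reads, 6.33). Of these, TDRD7 acts in germ granules. In the epithelial list 4 of 6 reached 2-fold and 3 were marked, among them the splicing factor ESRP2 (106 and 8 reads, 9.12, 4.97 to 24.1). ESRP2 had the highest ratio of this list. CLDN1 was thus taken by another listed region, nearer its start than the region with a ratio of 22.8.

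The list values moved with the distance of the regions from starts. Over all lists 203 of 270 genes (75.2%) reached 2-fold, against 64.6% of all genes with a symbol. Where the region lay within 1 kb of the start, 162 of 170 list genes (95.3%) did, against 92.1% of the 1618 such genes, so near starts this measure is close to its limit for all genes. With regions within 1 kb alone, the median log2 ratio of all genes was 2.58 in place of 1.85. That of Notch (2 genes) was 2.35 in place of 0.20, that of Wnt (2 genes) 3.47 in place of 0.84, and that of TGF-beta and BMP (3 genes) 2.51 in place of 1.18. That of the germ cell list (1 gene) was 2.66 in place of 0.62. The ribosome and translation list was at 3.00 (54 genes), below Wnt and pluripotency (3.26, 4 genes), and the somatic gonad list stayed at 0.62 (4 genes). Shares of regions near a start were 81.8% in the ribosome and translation list, 86.7% in splicing, 84.6% in the proteasome list, 28.6% in the Notch list and 22.2% in the Wnt list. The somatic gonad list, with 4 of 8 near a start, had a low median at both settings. A gene's own peak may be outside the tables. In every list, members not marked in ESC were present only through a call in PGC or SSC.

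Annotated functions also differed in how close their regions lay to starts. Of 3429 closest genes with a Gene Ontology term, 55.1% (53.4 to 56.8) were marked. At most 12 terms were listed for a gene, so a class below may miss genes that carry its term. The share was 85.1% (71.7 to 93.8) for mRNA splicing, 82.6% (78.2 to 86.4) for RNA binding and 82.0% (74.6 to 88.0) for translation. It was 45.8% (38.6 to 53.2) for transcription factor activity, 34.1% (24.0 to 45.4) for cell adhesion and 33.0% (23.9 to 43.1) for ion transport. The nearest region lay within 1 kb of the start for 75.8% of RNA-binding genes and 30.0% of ion transport genes. Among marked genes alone the median ratios were 7.67 for translation, 7.46 for multicellular development, 7.16 for extracellular region, 6.87 for RNA binding, 6.52 for transcription factor activity, 5.57 for cell adhesion and 5.52 for ion transport, beside 6.33 for all. Unmarked genes entered the tables through a call in PGC or SSC, so the denominators depend on those calls.

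At each population's own marked regions, the interval lay above 1 for 98.1% in ESC (97.7 to 98.5), 88.9% in SSC (87.8 to 89.9) and 77.5% in PGC (76.0 to 78.9). The ratio reached 4-fold at 77.0%, 43.9% and 17.7% of them. The median depth at these regions was 34 IP and 4 input reads in ESC, 15 and 5 in SSC, and 16 and 6 in PGC. With 1 pair of libraries each, population, embryo age and library cannot be told apart.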

How the data were processed

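The authors deposited, per the file headers, read counts per region, RPM values, fold enrichment (the ratio of IP RPM over input RPM) and log2 ratios between populations, the last not used. The submitters' processing notes name CASAVA 1.8, FastQC, BWA, MACS2 and galGal4. Settings, treatment of duplicates and whether coordinates count from 0 or 1 are not given in the sources used here. The deposited RPM values are the count plus 1 over the library total, and recomputed ratios differed by at most 0.000106. Libraries had 15 PCR cycles and no molecular identifiers are named.

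Regions were taken once per chromosome, start and end. Intervals are exact Clopper-Pearson 95% intervals of the IP share of reads, turned into a ratio of RPM, or of shares of regions; the procedure was tested on simulated data. Regions with their centre within 1 kb of a start were near it. Ratios at the floor set an input of under 3 reads to 3 reads. Each gene took the region whose centre lay nearest its start. Of 5488 closest gene IDs, 2164 had no symbol. Of 3283 symbols, 2959 were in the RefSeq gene table (GRCg7b), used for older names alone.

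Named regions were the strongest by the interval's lower end, by ratio at the floor and by IP RPM, the widest, the weakest marked ones, the strongest of each list and every listed pluripotency and mesendoderm gene; further list members were picked as examples after their values were seen. Members and the 22 lists were chosen with earlier results of these data known. Alternatives covered pseudocount, read minimum, fold, distance, scaling, table and, chosen after seeing the data, merged overlaps and placed chromosomes alone. Python 3.11, pandas 2.3.3, NumPy 2.4.6, SciPy 1.17.1 and matplotlib 3.10.9 were used.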

Additional observations from a re-analysis of the deposited data

How the results depend on the processing

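The medians of marked and unmarked regions, the position of marked regions and the counts of enriched regions kept their direction under the alternatives, apart from the difference between microchromosomes and large chromosomes. That difference was 0.17 on the log2 scale and became -0.0140 when IP density was read without the input, 0.0614 with inputs of under 3 reads set to 3, 0.0704 with a pseudocount of 5 reads and 0.10 when the table with PGC was used by itself. The difference between regions near starts and away from them was 0.32, and became 0.0167 on IP density alone and 0.20 with a pseudocount of 5. The median log2 ratio of marked regions was 2.56, and became 1.79 with a pseudocount of 5 and 2.03 when scaled to the median of regions not marked. For regions not marked it was 0.52 and became 0.20 with a pseudocount of 5. The share of marked regions near starts was 64.3%, and became 66.0% when the table with SSC was used by itself and 75.2% within 2 kb. The 4923 regions at 2-fold became 3210 at 4-fold and 3146 when the table with PGC was used by itself, and the 4217 with an interval above 1 became 2782 there, since that table holds 4801 of the regions. The 75.2% of list genes at 2-fold became 95.3% within 1 kb of a start. In all, 44 other values stayed within the limit set for their kind: the 95% interval of a share, 1.5 times for a count or a difference of medians, and a set log2 difference for a median. Of the list medians, 46 moved by less than 0.5 on the log2 scale and 12 by more, among them pluripotency, from 2.05 to 3.26 within 1 kb and 3.18 with the strongest region of each gene. A pseudocount of 5 was not applied to the intervals or to positions, nor the scaling to the median of regions not marked, which it sets. No paired analysis was possible because each group has 1 library. Depth limits single regions most, with a median of 4 input reads.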

Other observations

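Marked regions beside small RNA genes differed by class. Of all 8257 regions, 3992 were marked and 4265 were not. For small nucleolar RNAs, 24 marked regions of 23 genes had a median ratio of 7.76 and 20 lay within 1 kb of the start. A further 18 of their regions were not marked. For microRNAs, 35 regions were marked and 127 were not. Of the marked ones 13 lay within 1 kb of the start, and their median ratio over all 35 was 5.10. The median width was 998.5 bp for small nucleolar RNAs and 374 bp for microRNAs, and the part of width in the ratios was not tested. Regions were assigned to the closest start alone, and the part of other genes at the same place was not tested. gga-mir-2954, a microRNA gene of the Z chromosome, had 300 reads in ESC IP and 15 in ESC input at 145 bp upstream, a ratio of 14.4. gga-mir-6568 had 47 reads in ESC IP and 0 in ESC input, a ratio of 12.0 at the floor, with a counting interval from 9.39.

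Some regions held many input reads. An unplaced scaffold region of 1029 bp had 483 reads in ESC IP and 144 in ESC input, the highest input of all, and was marked at a ratio of 2.56 (2.13 to 3.12). Beside PLLP on chromosome 11 a region had 111 reads in ESC IP and 80 in ESC input, a ratio of 1.06, and was not marked.

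Of the 4265 regions not marked in ESC, 138 (3.24%) were at least 4-fold higher in ESC IP, against 38.9% of all regions. An interval above 1 was found at 300 of them (7.03%), against 51.1% of all regions. The listing keeps only ratios above 1, and the part of counting error in these counts was not tested. SLC25A46, a mitochondrial carrier, had 15 reads in ESC IP and 0 in ESC input at 1428 bp inside the gene. Its ratio was 3.83 at the floor, with a counting interval from 2.75. MRPL18, a mitochondrial ribosomal protein, had 24 and 2 reads at 213 bp upstream of its start, a ratio of 6.39 (2.28 to 80.3). That region, chr3:44873602-44873890, lay beside a marked region assigned to SNORA29. The marked region, chr3:44874182-44875172, held 132 reads in ESC IP and 19 in ESC input, a ratio of 5.10.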
